A study of Homo sapiens with 4 samples.

Results

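The 35 genes described here encode the enzymes and transporters of glycolysis together with genes of the hypoxia response. They were taken from 27685 genes in the deposited tables by their symbols, each as the sum of its transcripts. All 35 symbols were found. RNA was sequenced from HT-29, a human colorectal adenocarcinoma line, in 4 libraries. In each of 2 independent experiments, cells carrying a control vector were compared with cells that stably expressed TRIM40 with a Myc tag at its N terminus (Myc-TRIM40). All cells were grown in RPMI with fetal bovine serum and antibiotics, and the labels list no treatment and no low-oxygen culture for either group. The study's methods for transduced cells describe retroviral infection with polybrene and selection in puromycin. The promoter of the construct, and whether each line was a clone or a pool, are not given in the sources used here. The labels do not say which batches or days the experiments were run on, so each experiment is called only by its number.

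Glycolysis splits glucose into pyruvate. Its early, preparatory steps spend ATP, and its later payoff steps return ATP and NADH. Pyruvate is then reduced to lactate by lactate dehydrogenase or turned into acetyl-CoA inside mitochondria by pyruvate dehydrogenase, which the PDK kinases switch off. When oxygen is low, the alpha subunits of the hypoxia-inducible factors (HIFs), encoded by HIF1A and EPAS1, escape the prolyl hydroxylases of the EGLN family and the VHL ubiquitin ligase. They then pair with ARNT and bind hypoxia response elements, whose core is ACGTG. Many glycolytic genes carry such elements, so the pathway and the oxygen response are controlled together, and tumour lines keep much of the pathway active even in normal oxygen.

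Because this shared control acts through promoter sequence, the 250 bases before the annotated start were read for 31 of the 35 members from RefSeq (GRCh38.p14), and both strands were searched for ACGTG. The windows of PDK1, the member with the largest fitted change, and of PGK1, CA9 and LDHA, classical targets of the response, are shown 5′ to 3′ on the strand of the gene. Capitals mark each ACGTG or its complement CACGT, and overlapping matches run together.
PDK1, chr2:172555840-172556089, + strand: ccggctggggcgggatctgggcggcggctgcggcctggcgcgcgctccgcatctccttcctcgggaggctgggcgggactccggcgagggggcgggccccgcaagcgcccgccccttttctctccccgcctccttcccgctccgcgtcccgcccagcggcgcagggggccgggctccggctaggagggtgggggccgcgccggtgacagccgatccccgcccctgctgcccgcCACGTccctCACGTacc
PGK1, chrX:78103998-78104247, + strand: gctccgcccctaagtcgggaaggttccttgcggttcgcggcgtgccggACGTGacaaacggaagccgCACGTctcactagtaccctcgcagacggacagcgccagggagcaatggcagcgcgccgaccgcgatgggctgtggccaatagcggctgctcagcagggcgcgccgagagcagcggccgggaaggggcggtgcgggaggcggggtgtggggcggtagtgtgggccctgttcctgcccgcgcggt
CA9, chr9:35673678-35673927, + strand: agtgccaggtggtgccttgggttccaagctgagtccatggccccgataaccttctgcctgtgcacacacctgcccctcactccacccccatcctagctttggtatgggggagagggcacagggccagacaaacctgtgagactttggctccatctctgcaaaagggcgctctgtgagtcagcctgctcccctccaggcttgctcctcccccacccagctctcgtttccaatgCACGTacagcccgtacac
LDHA, chr11:18394313-18394562, + strand: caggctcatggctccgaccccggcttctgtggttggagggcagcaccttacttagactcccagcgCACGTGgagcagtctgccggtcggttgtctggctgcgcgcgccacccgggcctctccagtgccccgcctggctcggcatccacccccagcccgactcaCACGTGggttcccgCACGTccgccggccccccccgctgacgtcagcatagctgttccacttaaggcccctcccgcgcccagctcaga
PDK1 had 2 matches, which began 17 and 8 bases before the start. The other listed PDK1 start had 0. PGK1 also had 2 matches, at 202 and 183 bases, and CA9 had 1, at 18 bases. The LDHA window held 5, since each CACGTG palindrome reads as ACGTG on both strands, and the other listed LDHA start had 0. ACGTG was present at some start of 18 of the 31 members, 58.1%, against 21.7% of 27305 genes and 18.5% of all 35116 promoters in the table. GCGTG, the other common form of the core, was present in 16 members, 51.6%, against 36.2% of genes. The CACGTG palindrome was present in 8 members, 25.8%, against 7.73% of genes. HK2 held 4 ACGTG matches, and ALDOC and ANKRD37 held 3 each. Here too each palindrome counted on both strands, with up to 2 palindromes at a start of HK2 and 1 each in ALDOC and ANKRD37. These counts are therefore larger than the number of places in the sequence. A gene with more listed starts, such as PFKM with 7, had more windows in which to match, and the shares were not adjusted for this. Nor were they adjusted for expression or base composition, although the 27305 genes include many with few or no reads. The members were also listed as glycolysis and hypoxia genes, so a higher share of this core is partly built into the list. Matches are letters in a window and were not tested for binding. SLC2A3, VEGFA, NDRG1 and BNIP3L were not searched.

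TRIM40 itself had 0 reads in both control libraries. It had 272646 reads, 2086 FPKM (reads per transcript length and library total), in Myc-TRIM40 cells of experiment 1 and 110665 reads, 827.2 FPKM, in those of experiment 2. Library totals ran from 60954602 to 67424698 reads. The 9 colon epithelial markers, including EPCAM, KRT8 and KRT20, all had reads over the floor of 3 in every library, although CDX2, CDH17 and CEACAM5 stayed between 0.48 and 5.95 TPM (FPKM rescaled to the same sum in every library). Of 7 markers of other cell types, CD3E and COL1A2 had 0 reads throughout, 3 had more than 3 reads in every library, and the summed level of the list ran from 11.5 to 29.2 TPM, most of it CD68. That sum was higher in Myc-TRIM40 cells in both experiments, 16.9 against 29.2 TPM and 11.5 against 16.4 TPM, and its part in any result here was not tested. RNA came from whole cultures, so less RNA per cell and fewer cells with a transcript cannot be told apart.

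Levels of the glycolytic enzymes differed widely from gene to gene (see the plot of levels by library). The members were ranked among themselves and not against all genes. The members together took 1.64% (95% Wilson interval 1.63 to 1.64) of control reads and 1.57% (1.56 to 1.57) of Myc-TRIM40 reads in experiment 1, and 1.62% (1.61 to 1.62) and 1.54% (1.53 to 1.54) in experiment 2. These intervals cover counting error only. On this scale both Myc-TRIM40 libraries lay below both control libraries, by less than 0.1 percentage points. On the per-length TPM scale the sums were 18292 and 17915 TPM in experiment 1 and 15653 and 16954 TPM in experiment 2, so that the direction within experiment 2 was the opposite. GAPDH was the highest member by mean level, 5311 TPM, followed by ENO1 at 2297, LDHB at 1774, TPI1 at 1640, ALDOA at 1599 and PKM at 1529 TPM. At the other end, PDK1 averaged 6.63, PFKFB4 2.04 and ANKRD37 1.99 TPM.

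**Figure D1:**
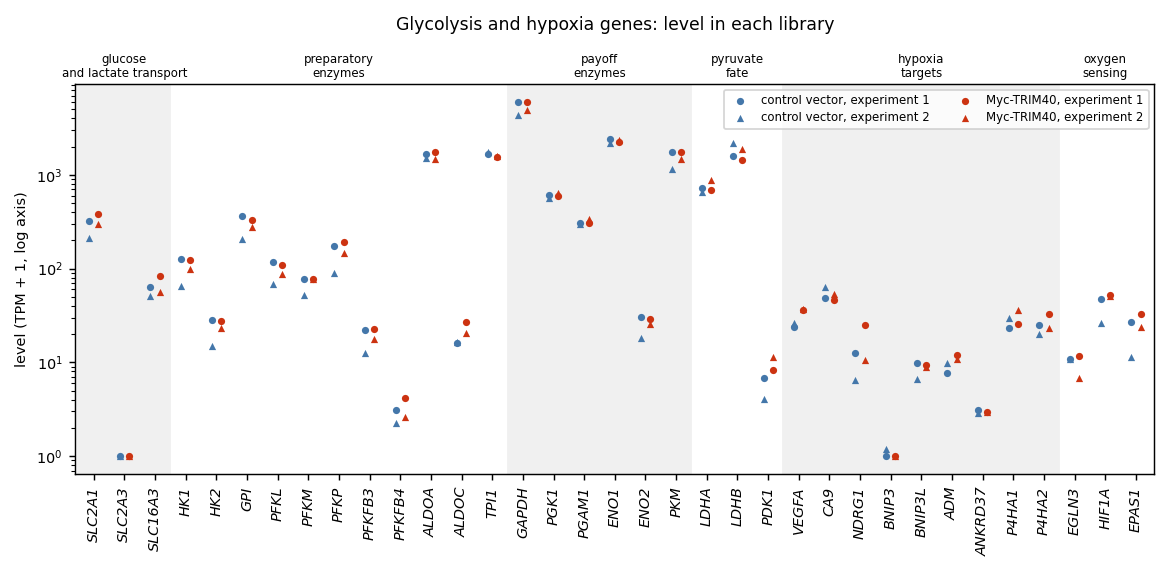
Level of each of the 35 members in each of the 4 libraries, as TPM + 1 on a log axis, grouped by role; circles are experiment 1, triangles experiment 2, blue the control vector and red Myc-TRIM40. GAPDH sits at the top (mean 5311 TPM), SLC2A3 and BNIP3 sit at the bottom, and blue and red points of most genes lie close together.

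No member passed the test for a change with Myc-TRIM40. With edgeR's quasi-likelihood test and the experiment as a block, 33 members had enough reads to be tested, and 0 were higher and 0 lower at a Benjamini-Hochberg adjusted p under 0.05. Among all 14868 genes tested, 0.0404% were called higher and 0.0202% lower, so that few calls were made anywhere. The smallest adjusted p of a member was 0.89 in edgeR. Before adjustment, 2 members, PDK1 and NDRG1, were higher at p under 0.05 and 0 lower, against 3.41% of tested genes higher and 1.13% lower. DESeq2 also called 0 members higher and 0 lower, against 0.303% and 0.0605% of tested genes. With 2 libraries in each group the smallest two-sided p of an exact permutation test on 1 gene is 0.33 when the pairing is ignored. Permuting within the experiments has fewer arrangements, so per-gene permutation could not pass 0.05 either way.

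The fitted changes of the members clustered near 0. Their median log2 fold change was 0.02, beside 0.04 for all tested genes, and they ran from -0.57 for EGLN3 to 0.96 for PDK1. In single experiments the median was -0.07 in experiment 1 and -0.01 in experiment 2, beside 0.00 and 0.03 for all tested genes. The median size of a change, whatever its sign, was 0.15 in experiment 1 and 0.20 in experiment 2 for the members, and 0.15 and 0.33 for all tested genes. On reads scaled by TMM, 25 of 33 members (75.8%) moved by less than 1.5-fold in both experiments, as did 68.3% of tested genes. Further, 18 of 33 members moved in the same direction in both experiments, 54.5% beside 54.9% of tested genes.

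**Figure D2:**
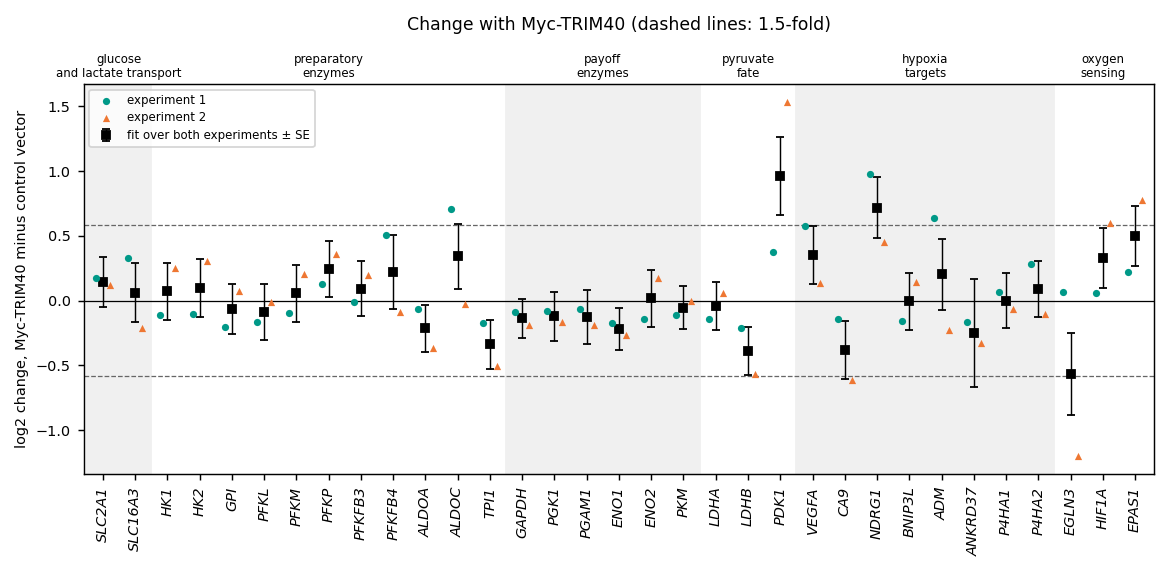
Log2 change of each of the 33 tested members, Myc-TRIM40 minus control vector; circles and triangles are the TMM-scaled changes in experiments 1 and 2, squares the edgeR fit over both with its standard error, and dashed lines mark 1.5-fold. PDK1 (0.96) and NDRG1 (0.72) have the highest fitted values, EGLN3 (-0.57) the lowest, and the squares of 5 of the 6 payoff enzymes lie slightly below 0 on this scale, whereas all 6 were higher on TPM in experiment 2.

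A rule on size gave the same picture. On the ratio of FPKM + 1, 0 of the 35 members passed 1.5-fold upward in both experiments and 0 downward, where 0.26% of all genes passed upward and 0.0506% downward, and 0 passed it in opposite directions, where 0.191% of genes did. In experiment 1, ALDOC and NDRG1 passed upward, 2 of 35 against 1.66% of genes, and 0 passed downward against 0.466%. In experiment 2, PDK1, HIF1A and EPAS1 passed upward, 3 of 35 against 4.71% of genes, and EGLN3 alone passed downward, 1 of 35 against 1.59%. The members past this size in experiment 1 were therefore other genes than those in experiment 2. These shares are over all 27685 genes, of which only 14868 had enough reads to be tested, whereas 33 of the 35 members did. Genes with few reads can hardly pass on FPKM + 1, so a higher share among the members cannot be read as an excess. In reads scaled by TMM, both Myc-TRIM40 libraries lay above both controls for 3 of 33 members (PDK1, VEGFA and HIF1A), where 11% of tested genes did so, and below them for 4 (ALDOA, TPI1, ENO1 and ANKRD37), where 9.67% did. Together these were 7 of 33, or 21.2%, beside 20.7% of tested genes.

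Glucose enters the cell by SLC2A1 (GLUT1), the widespread transporter that HIF raises, and lactate leaves by SLC16A3 (MCT4). Levels from here on are CPM, the read count per library size after TMM scaling, which aligns the libraries on the bulk of genes, and are given for control and then Myc-TRIM40 cells, experiment 1 first. A fitted change is the log2 fold change of Myc-TRIM40 against control ± its standard error. SLC2A1 had 550 and 620 CPM in control and Myc-TRIM40 cells of experiment 1, and 468 and 508 in experiment 2. The control and Myc-TRIM40 ranges overlapped, and the fitted log2 change was 0.15 ± 0.19 (SE, n = 2 per group; edgeR adjusted p = 0.91). SLC16A3 went from 60.8 to 76.4 CPM in experiment 1 and from 62.4 to 54.0 in experiment 2, which are opposite directions. Against SLC16A1 (MCT1), the other monocarboxylate carrier, which is not a member, SLC16A3 made up 49.0% and 70.5% of their summed TPM in experiment 1 and 43.0% and 41.1% in experiment 2. SLC2A3 (GLUT3), the high-affinity glucose transporter, was listed at 0 reads in all 4 libraries, where a floor of 3 reads would be 0.0113 to 0.0125 FPKM. SLC2A14, its closely similar neighbour in the genome, was also listed at 0, and how reads that fit both genes were treated is not given in the sources used here.

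The 11 preparatory genes had a median fitted change of 0.07, and 1 of them was higher and 3 were lower with Myc-TRIM40 in both experiments. Among all 14868 tested genes, 4256 were higher and 3906 lower in both. Hexokinase traps glucose in the cell, and HK1 went from 211 to 195 CPM in experiment 1 and from 137 to 164 in experiment 2. HK2, the form induced by HIF, had 91.1, 84.8, 59.8 and 73.8 in the same order. For both hexokinases the control libraries held the highest and the lowest value, so that the Myc-TRIM40 values lay between them. HK1 made up between 81.4% and 82.0% of hexokinase TPM in the 4 libraries. GPI, the isomerase of the next step, had 707, 613, 519 and 548 CPM.

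Phosphofructokinase commits sugar to glycolysis, and its 3 subunit genes were all present. The platelet-type PFKP was the main one, with 47.3% of the summed TPM in control and 51.1% in Myc-TRIM40 cells of experiment 1, and 42.7% and 47.4% in experiment 2. PFKL, the liver type, had lower shares with Myc-TRIM40, from 31.7% to 28.7% and from 32.8% to 28.1%. PFKM, the muscle type, held 21.0%, 20.2%, 24.6% and 24.5%. Within each experiment the share of PFKP was therefore higher with Myc-TRIM40, by 3.81 and 4.76 percentage points. The shares of the conditions did not overlap for PFKL or, narrowly, for PFKP, and they did for PFKM. No test was run on shares. PFKP itself had a fitted log2 change of 0.24 ± 0.22 (edgeR adjusted p = 0.89). The bifunctional enzymes PFKFB3 and PFKFB4, which set the activator of phosphofructokinase, had fitted changes of 0.09 ± 0.21 and 0.22 ± 0.29, and PFKFB4 rested on only 176 to 324 reads.

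**Figure D3:**
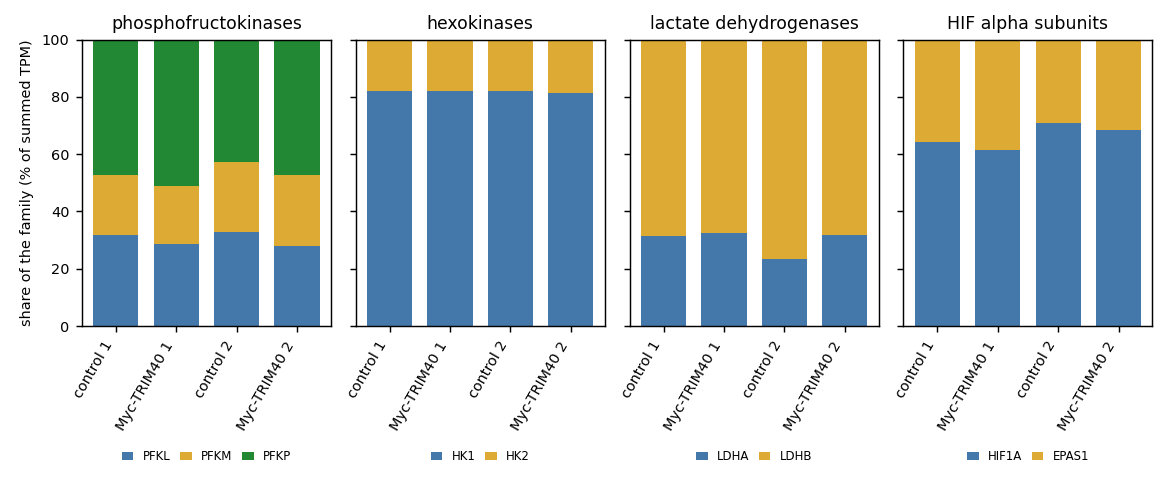
Share of each isoenzyme or subunit in the summed TPM of its family, in percent, for the 4 libraries (control vector and Myc-TRIM40, experiments 1 and 2). HK1 stays near 82% in all 4, PFKP is 3.81 and 4.76 points higher with Myc-TRIM40, and LDHA is lowest, 23.2%, in the control library of experiment 2.

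Aldolase and triose phosphate isomerase complete this phase. ALDOA, the main aldolase with at least 98.5% of aldolase TPM, went from 1354 to 1293 CPM and from 1477 to 1150. TPI1 went from 1058 to 940 and from 1423 to 1003. On this scale both were lower with Myc-TRIM40 in each experiment and their groups did not overlap, yet the fitted changes, -0.21 ± 0.18 and -0.34 ± 0.19, did not pass the test (edgeR adjusted p = 0.89 for both). On TPM, ALDOA was higher with Myc-TRIM40 in experiment 1, 1754 against 1664 TPM. TPM also depends on how reads were divided among transcripts of unlike length. In that experiment NM_000034, of 2390 bases, took 25.85% of ALDOA reads in control and 11.26% in Myc-TRIM40 cells. NM_184041, of 1579 bases, took 68.71% and 82.5%. The part of this division in the TPM difference was not tested. TPI1 overlaps SPSB2, whose reads may be shared. ALDOC, the brain-type aldolase, had 11.7 and 19.2 CPM in experiment 1 and 15.4 and 15.2 in experiment 2. Its ratio of FPKM + 1 was thus 1.59 in experiment 1 and 1.07 in experiment 2.

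The payoff enzymes had fitted changes close to one another, with an SD of 0.08 over the 6 genes beside 0.31 over all tested members. Read depth differed widely, with 208116 to 241086 reads per library for GAPDH and 53 to 70 for ANKRD37. The SDs were not compared at matched depth. Of the 6, 5 were lower with Myc-TRIM40 in both experiments on TMM-scaled reads, where 3906 of 14868 tested genes were. The median changes of the 6 were -0.10 and -0.18. GAPDH, the dehydrogenase that yields NADH and a common loading control, had 3949 and 3723 CPM in experiment 1 and 3687 and 3236 in experiment 2, a fitted change of -0.14 ± 0.15. ENO1, the main enolase, went from 2477 to 2196 and from 2890 to 2407. Its 2 Myc-TRIM40 values were both below its 2 control values, and its fitted change was -0.22 ± 0.16 (edgeR adjusted p = 0.89). ENO1 overlaps the antisense gene ENO1-AS1. PGK1, which makes the first ATP of the pathway, and PGAM1, a mutase, had fitted changes of -0.12 ± 0.19 and -0.13 ± 0.21. PKM, the pyruvate kinase gene, had a fitted change of -0.06 ± 0.16, and ENO2, the neuronal enolase, 0.02 ± 0.22. These small shifts depended on the scale, since the median of all tested genes in experiment 2 was 0.03 after TMM scaling, 0.15 on library totals and 0.27 on TPM + 1. On TPM, all 6 of these genes were higher with Myc-TRIM40 in experiment 2, for example GAPDH with 4375 and 4929 TPM.

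At the end of the pathway, LDHB, the lactate dehydrogenase subunit that favours pyruvate, was the more abundant of the pair. It had 998 and 864 CPM in experiment 1 and 1753 and 1182 in experiment 2. It was thus lower with Myc-TRIM40 in each experiment, but the control level of experiment 1 lay inside the Myc-TRIM40 range. Its fitted log2 change was -0.39 ± 0.19 (edgeR adjusted p = 0.89). LDHA, the subunit that favours lactate and a HIF target, had 738, 668, 865 and 900 CPM. LDHA made up 31.4%, 32.3%, 23.2% and 31.6% of the pair's TPM, so that only the control library of experiment 2 stood apart.

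PDK1, a kinase that HIF induces and that switches off pyruvate dehydrogenase, had the largest fitted change of the set. It lies at chr2:173420101-173490351 in hg19. It had 651 and 870 reads in experiment 1 and 464 and 1360 in experiment 2, or 10.7, 13.9, 7.28 and 21.2 CPM. Both Myc-TRIM40 libraries were above both controls. The log2 change was 0.38 in experiment 1 and 1.53 in experiment 2, and the fit gave 0.96 ± 0.30 (SE, n = 2 per group; edgeR adjusted p = 0.89, DESeq2 adjusted p = 0.73). Of all genes tested, 96.3% had a lower fitted change. Its reads were divided over 4 transcripts, and NM_002610 took 34.9% and 62.1% of the reads of the gene in experiment 1 and 30.8% and 67.1% in experiment 2.

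The hypoxia targets outside glycolysis had values on both sides of 0, with a median fitted change of 0.05 over 8 tested genes. NDRG1, a stress and differentiation gene, had 1031 and 2090 reads in experiment 1 and 640 and 883 in experiment 2, or 16.9, 33.3, 10.0 and 13.7 CPM. It was higher with Myc-TRIM40 within each experiment, by 0.98 and 0.45 on the log2 scale, but the control value of experiment 1 exceeded the Myc-TRIM40 value of experiment 2. The fit gave 0.72 ± 0.23 (edgeR adjusted p = 0.89). VEGFA, the main angiogenic growth factor, had 36.5, 54.3, 53.0 and 58.2 CPM and a change of 0.35 ± 0.22 (edgeR adjusted p = 0.89). Its Myc-TRIM40 values were the highest in the set of 4, with a narrow margin over the control of experiment 2.

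CA9, a cell-surface carbonic anhydrase used as a marker of hypoxia, had lower values with Myc-TRIM40 in both experiments. It had 34.7 and 31.5 CPM in experiment 1 and 58.5 and 38.2 in experiment 2, with a change of -0.38 ± 0.22 (edgeR adjusted p = 0.89). ADM, a vasodilator peptide, had 5.04, 7.85, 8.52 and 7.28 CPM, so that it was higher with Myc-TRIM40 in experiment 1 and lower in experiment 2. ANKRD37 overlaps UFSP2 and rested on 53 to 70 reads per library, with a fitted change of -0.25 ± 0.42. BNIP3L, a receptor for mitophagy, had a fitted change of -0.01 ± 0.22. Its relative BNIP3 had 12 reads in the control library of experiment 2 and was listed at 0 in the others, and RefSeq names 46 pseudogenes after BNIP3, so its level is uncertain. The collagen prolyl hydroxylase subunits P4HA1 and P4HA2 had fitted changes of 0.00 ± 0.21 and 0.09 ± 0.22.

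Among the oxygen-sensing members, both HIF alpha genes had higher values and the hydroxylase gene EGLN3 lower values with Myc-TRIM40 in experiment 2, with far smaller differences in experiment 1. HIF1A had 88.7 and 92.2 CPM in experiment 1 and 62.1 and 94.2 in experiment 2. The 2 Myc-TRIM40 values were nearly equal and above both controls, which differed from each other. The fitted change was 0.33 ± 0.23 (edgeR adjusted p = 0.89). EPAS1 had 63.0 and 73.6, and 32.3 and 55.4, CPM, with a change of 0.50 ± 0.23 (edgeR adjusted p = 0.89). HIF1A made up 64.2% and 61.5% of the summed TPM of both alpha genes in experiment 1, and 71.0% and 68.4% in experiment 2, which are differences of -2.79 and -2.62 points with Myc-TRIM40. HIF protein is controlled mainly by its breakdown, which RNA does not show. In experiment 2, tested members with 1 listed transcript of 943 to 1651 bases (ANKRD37, CA9, ADM and ALDOC) had lower CPM with Myc-TRIM40. Those of 3670 to 7093 bases (SLC2A1, EPAS1 and HK2) had higher CPM. PGK1 was lower and ENO2 higher, both of 2423 bases. The control library of experiment 2 had the largest FPKM sum, 552270 against 447570 to 469117. Whether changes in experiment 2 followed transcript length was not tested.

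EGLN3 encodes a hydroxylase that marks HIF alpha for breakdown and is itself a HIF target. It had 753 and 809 reads in experiment 1 and 1036 and 454 in experiment 2, or 12.3, 12.9, 16.3 and 7.06 CPM. The log2 change was 0.06 in experiment 1 and -1.20 in experiment 2, and the fit gave -0.57 ± 0.31 (edgeR adjusted p = 0.89). EGLN3 also stands in a list of changed genes that the study chose on its own RNA-seq, so that its selection is not independent evidence of a direction. Not every value listed for EGLN3 there is the deposited one for the same experiment, and only deposited values were used here, so its value in experiment 1 is uncertain. Whether its change, or that of PDK1, differed between experiments could not be tested, because each experiment has 1 library of each condition.

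The members were also compared between the experiments. With the condition as a term, edgeR called 0 members higher and 0 lower in experiment 2, where 0.135% of tested genes were higher and 0.397% lower. NDRG1 had the smallest adjusted p, 0.055, and was lower in experiment 2, with log2 differences of -0.75 in control and -1.28 in Myc-TRIM40 cells and a fit of -1.02 ± 0.23. LDHB was higher in experiment 2 by 0.81 and 0.45 (fit 0.63 ± 0.19, edgeR adjusted p = 0.078) and P4HA1 by 0.73 and 0.59 (fit 0.66 ± 0.21, edgeR adjusted p = 0.09). DESeq2 called 3 members, LDHB and P4HA1 higher and NDRG1 lower, at adjusted p = 0.041, 0.047 and 0.0092, where it called 5.86% of tested genes higher and 7.18% lower. Across the 33 tested members, 10 were higher in experiment 2 in both conditions, 15 lower in both, and 8 opposite in sign between the conditions. For EPAS1, the log2 difference between the control libraries, -0.96, was larger in size than the fitted change with Myc-TRIM40, 0.50. This was not particular to EPAS1. It held for many members, among them NDRG1 (-0.75 against 0.72), LDHB (0.81 against -0.39) and HIF1A (-0.51 against 0.33). It did not hold for PDK1 (-0.55 against 0.96) or EGLN3 (0.40 against -0.57).

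**Figure D4:**
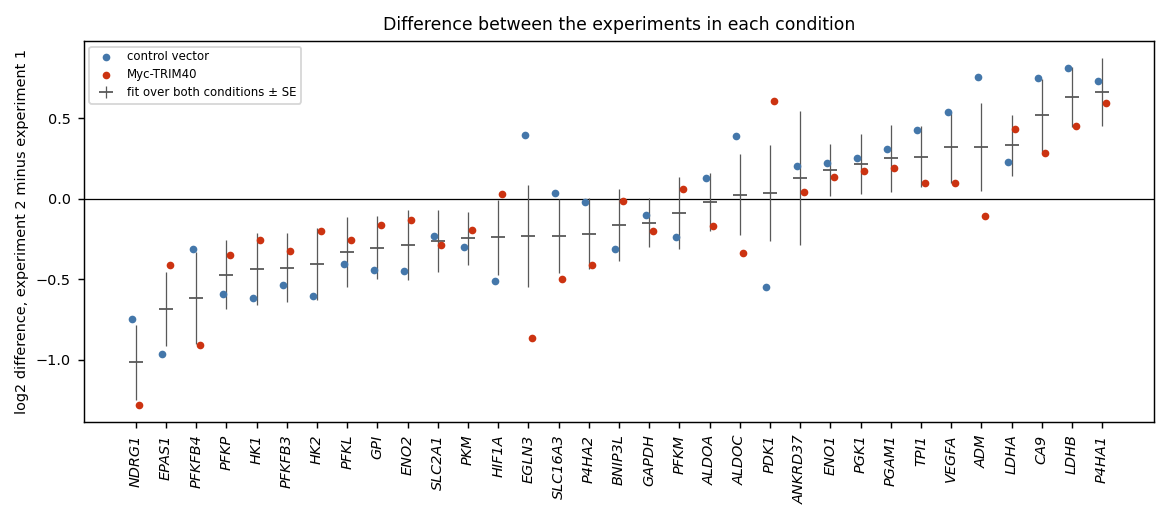
Log2 difference of each of the 33 tested members between the experiments, experiment 2 minus experiment 1, in control vector cells (blue) and Myc-TRIM40 cells (red), sorted by the fit over both conditions, whose standard error is drawn as a line. NDRG1 lies lowest (-1.02) and P4HA1 highest (0.66), while PDK1 and EGLN3 have blue and red points far apart on either side of 0.

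How reads were divided among transcripts varied more than the gene totals in some members. Of 24 members with more than 1 listed transcript, 6 had a transcript whose share of the reads of its gene ranged over more than 20 percentage points between libraries. The share among all genes was not computed, so this count cannot be called particular to the members. In PFKP, NM_002627 took 14.8% (95% Wilson interval 14.2 to 15.4) of reads in control and 92.9% (92.5 to 93.3) in Myc-TRIM40 cells of experiment 1, but 7.86% (7.32 to 8.44) and 8.47% (7.97 to 8.99) in experiment 2. In PFKFB4, NM_004567 took 99.1%, 97.5%, 0% and 99.4%, so that the control library of experiment 2 was assigned almost wholly to NM_001317134. Each of these shifts came in 1 library only. PDK1 differed from them, since the share of NM_002610 given above was higher with Myc-TRIM40 in both experiments. In PFKFB3, NM_001145443 was lower with Myc-TRIM40 in both, with 77.8% and 54.9% in experiment 1 and 99.9% and 82.5% in experiment 2. In PKM, NM_002654 took 16.1%, 23.5%, 36.3% and 26.8%, and in P4HA2, NM_001017974 took 31.9%, 56.0%, 38.3% and 34.9%, with opposite directions in the experiments for both. Such shares are estimates of how shared exons were divided, and gene sums were used for all tests. The intervals given for PFKP cover counting error only, not the error of this division.

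The rest of the pathway was examined in 65 further genes of glycolysis and pyruvate use, oxygen sensing and the hypoxia response, of which 47 were tested. By edgeR 0 were called higher and 0 lower, and by size 0 passed 1.5-fold in both experiments in either direction. Before adjustment, 2 of the 47 had p under 0.05 in edgeR, both higher, and 0 were lower. Among all tested genes, 3.41% were higher and 1.13% lower at this threshold. BHLHE40, a transcriptional repressor, had 7.17 and 14.2 CPM in experiment 1 and 6.89 and 8.51 in experiment 2, a change of 0.65 ± 0.25 (edgeR adjusted p = 0.89). EGFR, the epidermal growth factor receptor, had 91.9 and 98.1 in experiment 1 and 17.4 and 55.3 in experiment 2, a change of 0.87 ± 0.35 (edgeR adjusted p = 0.89). Its control level was far lower in experiment 2 than in experiment 1, a log2 difference of -2.40.

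Among the regulators of HIF, ARNT, the shared partner, had 42.2, 38.0, 20.7 and 31.4 CPM, and HIF1AN, the asparaginyl hydroxylase that blocks HIF activity, had 92.9, 93.2, 58.0 and 83.6. VHL, the ubiquitin ligase subunit, had 61.5, 61.4, 67.7 and 59.3 CPM and a fitted change of -0.10 ± 0.21. EGLN1, the main hydroxylase, had a fitted change of -0.09 ± 0.21, and EGLN2 -0.10 ± 0.22. The median change was -0.07 over 22 tested glycolysis and pyruvate genes, 0.05 over 6 oxygen-sensing genes and 0.15 over 19 hypoxia targets, beside 0.04 for all tested genes. The members with ACGTG near a listed start had a median change of 0.00 over 17 tested genes, and those without it 0.07 over 13. Some of those without it, such as EPAS1, HIF1A and ENO1, had the other form of the core, GCGTG. The second group was therefore not a group without any core.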

How the data were processed

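RNA from HT-29 cells was sequenced in 4 libraries, control vector and Myc-TRIM40 in each of 2 experiments, with TruSeq Stranded mRNA libraries on a NovaSeq system. Submitters' processing notes name HISAT2 2.1.0, StringTie 1.3.4d and hg19. Their roles, and the strand setting of the counting, are not given in the sources used here. The authors deposited read counts per RefSeq transcript as whole numbers without normalization, together with each transcript's length in bases. FPKM values, scaled to length and depth, were deposited for both experiments and TPM values for experiment 2. For experiment 1, TPM was computed here from FPKM.

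The 63714 transcripts were summed per gene ID to 27685 genes. Members and lists were chosen with earlier results of these data known. Differences were tested in R 4.3.3 with the quasi-likelihood F test of edgeR 4.0.16, using TMM scaling, the experiment as a block and Benjamini-Hochberg adjustment over the 14868 genes that passed filterByExpr. Libraries were paired because the labels number the replicates and each deposited table holds both conditions of 1 experiment, and same-numbered libraries deviated together (correlation 0.449). The fit had a common dispersion of 0.0484, 1 residual degree of freedom and 7.44 prior degrees of freedom at the median. Standard errors were derived from the fold change and its F value. Nothing says that the libraries came from separately derived lines, so p-values measure the spread between these libraries only. Genes changed in common were those whose FPKM + 1 differed 1.5-fold or more, in the same direction, in both experiments.

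The rule for names gave levels of all members, full statistics for those past an adjusted or unadjusted p of 0.05, changed in common or past 1.5-fold in opposite directions, and other pathway genes only if called or changed in common, besides ARNT, VHL, EGLN1, EGLN2 and HIF1AN. Statistics of other members, and BHLHE40, EGFR, SLC2A14 and SLC16A1, were added after their values were seen. Alternatives were no block, DESeq2 1.42.0, limma 3.58.1 on log2(FPKM + 1), upper-quartile scaling, library totals, no filter, other thresholds and each experiment left out. Scripts were tested on simulated data. Promoters were read from a RefSeq table (GRCh38.p14), which is not the build of the files. Of the members, 5 overlap another gene with at least 10 reads (SLC2A1, PFKM, TPI1, ENO1 and ANKRD37), and 15 have pseudogenes named after them in RefSeq, 65 of them for GAPDH, so reads of these genes may be shared. Python 3.11.15 with pandas 2.3.3 and numpy 2.4.6 did the rest.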

Additional observations from a re-analysis of the deposited data

How the results depend on the processing

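With 2 libraries per group and 1 residual degree of freedom, only large and repeatable changes could be called, and fold changes of genes with under 100 reads, such as ANKRD37, are imprecise. The fit with no replicate block, like DESeq2, upper-quartile scaling, no filter, limma and library totals, called 0 members and 0 other pathway genes, so the block changed no call. Leaving out an experiment leaves no residual degrees of freedom, so no call was possible. Of 198 member fold changes under 6 other fits, 185 kept their direction and side of the threshold and 13 changed sign in 6 members, none of which was called. These were GPI (limma 0.0155, library totals 0.0141), PKM (limma 0.0474, totals 0.0232), LDHA (limma 0.0312, totals 0.0361), BNIP3L (limma 0.0545, totals 0.0731), ENO2 (DESeq2 -0.0096) and P4HA1 (no block -0.0146, DESeq2 -0.0255, upper quartile -0.0105, no filter -0.0023). The members' median log2 fold change, 0.02, was 0.088 with limma, 0.0954 on library totals and between -0.0669 and -0.0142 with an experiment left out. The shift on library totals follows from the scaling, which moved the median of all genes in experiment 2 to 0.15. For experiment 2 against 1, DESeq2 called 2 members higher and 1 lower where edgeR called 0 and 0, and the cause was not tested. On TPM, 1 member, NDRG1, passed 1.5-fold upward in both experiments, and 0 did with median-centred TPM, a setting chosen after seeing the data. Requiring 1 experiment only, 2 to 3 members passed upward and 0 to 1 downward, and 2 to 4 other pathway genes upward and 1 downward. Of all genes, with or without enough reads, 1.66% and 4.71% passed upward and 0.466% and 1.59% downward in experiments 1 and 2.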
